A study of Mus musculus with 15 samples.

Results

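Genes for the receptors of neuropeptides were examined for H3K4me3, the trimethylation of lysine 4 on histone H3, in the amygdala of the adult male mouse. The 46 genes were listed by name from 14 ligand systems and 9 receptors taken singly, out of 21938 annotated protein-coding genes. The series compared WT males with males carrying Kmt2a-HET (Kmt2a+/-, heterozygous loss of a writer of this mark), Kdm5c-KO (Kdm5c-/y, loss of its X-linked eraser) or both alleles together (DM). All mice were F1 hybrids labelled 129xB6, from 129S1/SvImJ fathers and C57BL/6J mothers, and the mutations were constitutive, so that they were carried by all cells of the animal. H3K4me3 was profiled in 2 WT samples and in 3 samples of each mutant genotype, with 1 input sample per genotype, from about 20000 isolated nuclei per sample. Only the WT summits, deposited as 1 list for both WT samples, were analysed here, so nothing below compares genotypes.

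Neuropeptides are short secreted signals that act on G protein-coupled receptors. Receptors that couple to Gi/o lower cAMP and reduce excitability, those that couple to Gq/11 release calcium from stores, and those that couple to Gs raise cAMP. In the amygdala such receptors are known for their part in fear, anxiety, feeding and social behaviour, and many are made by particular subsets of neurons. H3K4me3 marks the nucleosomes around the start sites of active or poised genes, most of all where the promoter is rich in CpG dinucleotides.

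The list held 24162 summits, each a single base with a score that was read as −log10 of the q-value. The file does not name the scale and gives no read count behind a score. Summits on chromosomes 1 to 19, X and Y numbered 24139, with scores from 1.18 to 341.7 and a median of 102.3. A promoter summit was defined as a summit within 1 kb of any transcription start site (TSS) of the gene in GENCODE M21, and a gene with at least 1 of them was called marked. Where a gene had several, the highest score was used. Because 1 list stands for both samples, it carries no spread between replicates and no test was possible. The order of neighbouring scores cannot be set against an error, and the interval beside each share accounts for counting error alone. The score reflects the strength of evidence for a peak and is not a linear level of the mark. The tissue held many cell types, so fewer nuclei with the mark and less of the mark per nucleus cannot be told apart. Promoter summits were present at 6 of 6 neuronal, 3 of 3 astrocyte, 3 of 3 oligodendrocyte and 2 of 2 endothelial markers. Pecam1, an endothelial marker, had the lowest score of these, 15.5. Of 5 genes of other organs 1 was marked, Ckm, with a score of 9.1. Over all protein-coding genes 64.7% were marked. The marked receptors Prlhr (8.71), Mc3r (5.06), Rxfp1 (4.45) and Grpr (2.84) scored below Ckm.

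Neuropeptide receptor promoters were commonly marked, but with low scores. A promoter summit was present at 42 of the 46 genes, or 91.3% (95% Wilson interval 79.7 to 96.6), beside 64.7% of all protein-coding genes. A promoter summit at or above the list median was present at 17 of the 46, or 37.0% (24.5 to 51.4), beside 52.0% of all protein-coding genes. The median of the highest promoter score was 66.7 over the 42 marked receptors (quartiles 40.7 and 146.2, range 2.84 to 263.0) and 194.6 over the 14197 marked protein-coding genes (quartiles 129.8 and 230.2). Of the marked receptors, 29 lay below the lower quartile of marked coding genes, and 6 lay above their median. The 6 were Nmbr, Adcyap1r1, Mchr1, Oprl1, Sstr1 and Kiss1r, of which Nmbr and Kiss1r shared the summit with the promoter of another gene.

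**Figure D1:**
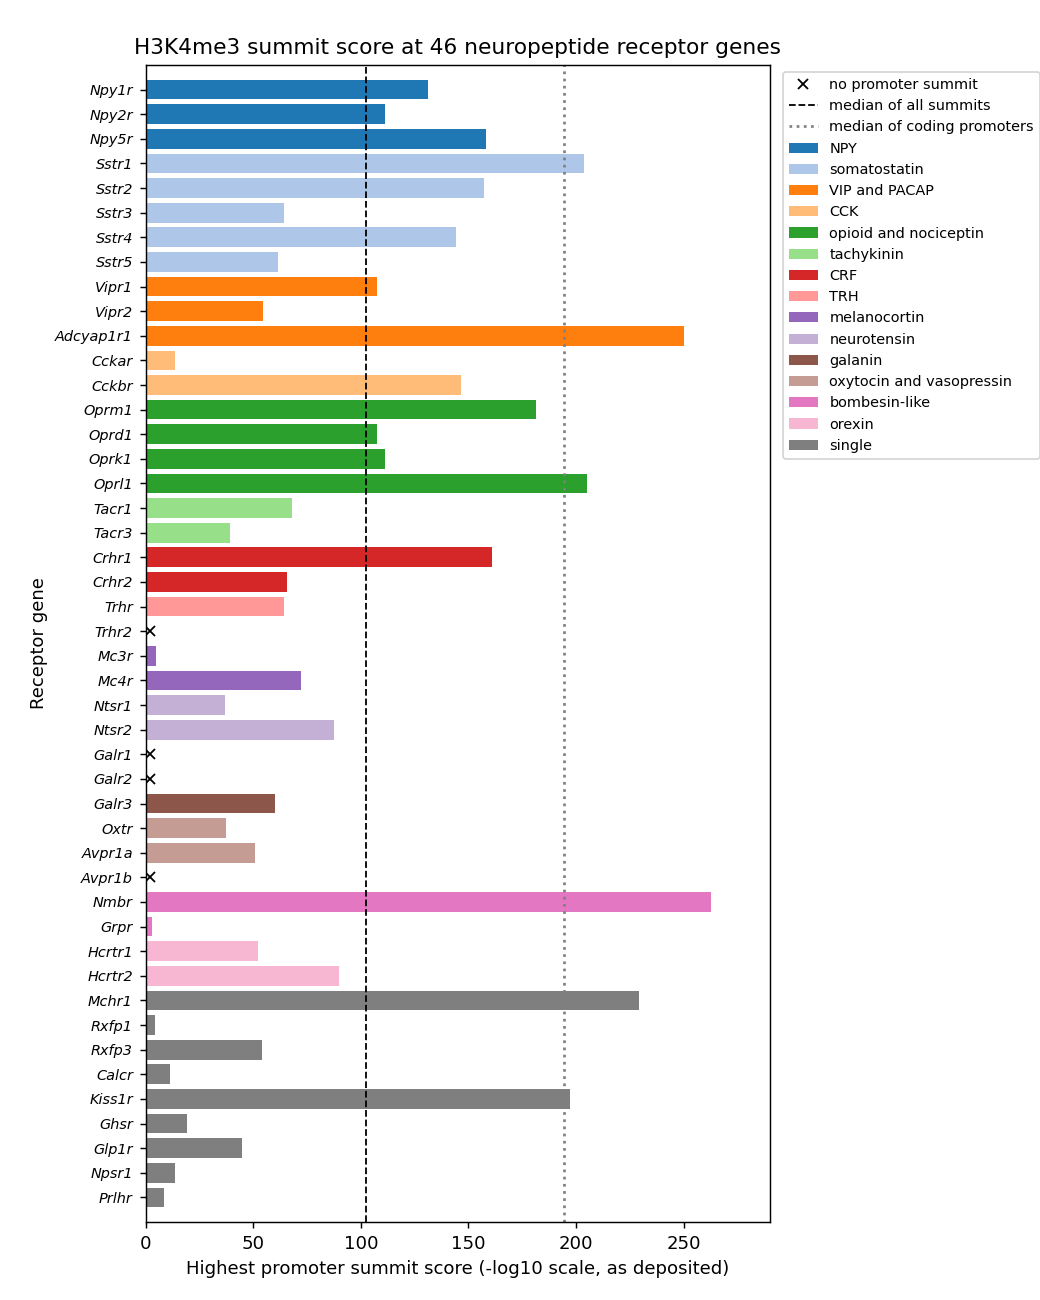
Highest promoter summit score (x axis, −log10 scale as deposited) of each of the 46 receptor genes (y axis), coloured by ligand system, with a cross for a gene without a promoter summit. The dashed line is the median of all summits (102.3) and the dotted line the median of marked protein-coding genes (194.6): 17 bars reach the first.

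**Figure D2:**
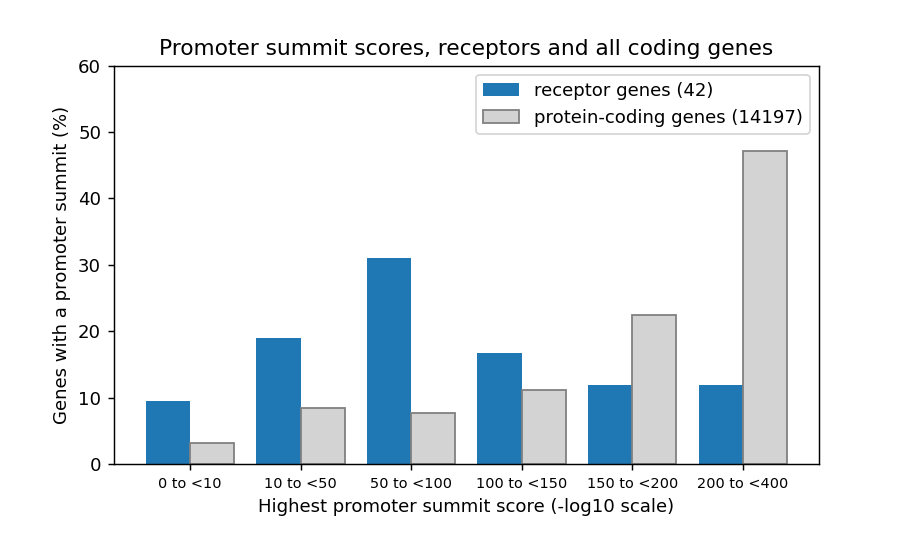
Share of marked genes (y axis, percent) in 6 bands of the highest promoter summit score (x axis, −log10 scale), for 42 receptor genes in blue and 14197 protein-coding genes in grey. The band from 50 to under 100 held 31.0% of the marked receptors and 7.7% of the marked coding genes, and the band from 200 upward held 11.9% and 47.1%.

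The DNA upstream of the start sites differed widely among the receptors, and the runs below were chosen to show some of the contrasts. They are the highest-scoring receptor (Nmbr, at both of its start clusters), the highest-scoring receptor that shared its summit with no other gene (Adcyap1r1), the lowest-scoring (Grpr), the marked gene whose outermost start had the lowest CpG content (Oprm1, shown at its inner, marked start cluster, where the content was higher), the TRH receptor with a promoter summit (Trhr), and 2 genes without one (Galr2, and Trhr2 at its GENCODE and its RefSeq start). Nmbr at the second cluster, Adcyap1r1 and the RefSeq start of Trhr2 were added after the values were seen. Galr1, also without a promoter summit, is not shown, although its ratio of observed to expected CpGs was higher than that of Galr2 (0.60 and 0.37). Each run was read 5′ to 3′ on the strand of the gene from RefSeq GRCm38.p6, ends at the TSS or at the nearest upstream base outside every exon of GENCODE and of curated RefSeq transcripts, and has each CpG in capitals.
Nmbr, first start cluster (chr10:14705561-14705590, plus strand): gcttgtcCGCGaCGggtgccCGaaggagac
Nmbr, second start cluster (chr10:14759861-14759946, plus strand): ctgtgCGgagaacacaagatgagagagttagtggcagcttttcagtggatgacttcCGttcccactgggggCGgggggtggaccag
Adcyap1r1 (chr6:55451728-55451977, plus strand): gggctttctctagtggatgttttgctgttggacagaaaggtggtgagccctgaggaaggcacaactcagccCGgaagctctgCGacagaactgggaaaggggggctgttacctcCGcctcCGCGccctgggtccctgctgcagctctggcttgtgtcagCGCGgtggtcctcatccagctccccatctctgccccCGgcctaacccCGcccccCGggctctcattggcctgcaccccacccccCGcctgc
Grpr (chrX:163549737-163549986, minus strand): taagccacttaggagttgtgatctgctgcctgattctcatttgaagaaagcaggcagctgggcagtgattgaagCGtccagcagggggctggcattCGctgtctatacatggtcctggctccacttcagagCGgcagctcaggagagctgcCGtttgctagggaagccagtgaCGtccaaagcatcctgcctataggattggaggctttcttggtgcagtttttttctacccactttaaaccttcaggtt
Oprm1 (chr10:6788320-6788569, plus strand): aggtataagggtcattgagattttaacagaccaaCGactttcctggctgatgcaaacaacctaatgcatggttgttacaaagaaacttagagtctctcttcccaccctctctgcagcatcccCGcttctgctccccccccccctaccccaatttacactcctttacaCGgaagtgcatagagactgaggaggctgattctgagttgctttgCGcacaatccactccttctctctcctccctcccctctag
Trhr (chr15:44195885-44196134, plus strand): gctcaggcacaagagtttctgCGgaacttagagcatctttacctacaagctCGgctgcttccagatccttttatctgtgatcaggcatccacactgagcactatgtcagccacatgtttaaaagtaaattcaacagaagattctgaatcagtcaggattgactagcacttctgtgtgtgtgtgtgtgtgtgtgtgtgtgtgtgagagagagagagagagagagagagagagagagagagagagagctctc
Galr2 (chr11:116280689-116280938, plus strand): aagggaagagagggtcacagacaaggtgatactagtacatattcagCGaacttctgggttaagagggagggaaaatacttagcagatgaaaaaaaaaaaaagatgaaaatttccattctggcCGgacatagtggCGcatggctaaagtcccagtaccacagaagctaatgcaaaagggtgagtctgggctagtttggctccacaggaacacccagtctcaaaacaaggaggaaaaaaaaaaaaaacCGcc
Trhr2, GENCODE start (chr8:122361480-122361729, minus strand): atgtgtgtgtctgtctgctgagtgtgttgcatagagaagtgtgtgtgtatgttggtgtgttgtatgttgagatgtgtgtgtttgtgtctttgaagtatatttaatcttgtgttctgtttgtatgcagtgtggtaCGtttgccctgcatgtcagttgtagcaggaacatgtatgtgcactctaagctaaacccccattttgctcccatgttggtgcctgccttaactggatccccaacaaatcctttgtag
Trhr2, RefSeq start (chr8:122362829-122363078, minus strand): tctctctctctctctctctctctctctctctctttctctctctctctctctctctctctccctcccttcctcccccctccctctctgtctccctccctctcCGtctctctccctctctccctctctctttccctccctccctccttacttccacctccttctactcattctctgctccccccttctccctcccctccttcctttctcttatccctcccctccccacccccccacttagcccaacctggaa

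The run at the first Nmbr cluster was only 30 bases long, because an exon of the divergent gene Vta1 begins beyond it, and it held 4 CpGs. The run of Adcyap1r1 held 11 CpGs in 250 bases, with 65.6% G and C. That of Grpr held 5, that of Oprm1 held 4 and that of Trhr held 2, beside a long TG and AG repeat. The run of Galr2 held 4 CpGs, and both runs of Trhr2 held 1. Galr2, without a promoter summit, thus held more CpGs in its run than Trhr, which had one. Some runs ended short of the first TSS, by 733 bases at the GENCODE start of Trhr2 and 210 at the second Nmbr cluster. The gap was 59 bases at Grpr and 31 at Oprm1. The run at the GENCODE start of Trhr2 also lay downstream of its RefSeq start. Its count therefore does not describe the DNA next to either start. Of the motifs searched on both strands in the 250 bases upstream of the outermost TSS, the TATA box TATAAA was present at 4 of 46 receptors (8.7%) and at 11.5% of coding genes, and the CCAAT box at 18 (39.1%) and 36.0%. The GC box GGGCGG was present at 13 (28.3%) and 39.0%, and the cAMP response element TGACGTCA at 1, Sstr2 (2.2%), and 2.0%. A match to these letters is a description and not a site of binding.

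The 3 receptors of neuropeptide Y among the members were all marked at or above the list median, whereas the related Npy4r and Npy6r, from a list of further peptide receptors, had no promoter summit. Npy1r, a receptor known for lowering anxiety (ENSMUSG00000036437, chromosome 8, plus strand), scored 131.2 at a summit at 66697741, 319 bp downstream of a TSS. Npy5r, a feeding receptor transcribed away from it on the minus strand, scored 158.1 at 66687977, 70 bp downstream of its TSS. The outermost starts of this head-to-head pair lay 9.1 kb apart, and each had a summit of its own. Npy2r, the receptor that acts on NPY terminals to reduce release (chromosome 3, 82547810), scored 111.2.

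The somatostatin receptors, which couple to Gi/o and quieten their target cells, were all marked but fell into a higher and a lower set. Sstr1 (chromosome 12, 58212650) scored 203.7, Sstr2 (chromosome 11, 113619752) scored 157.4 and Sstr4 (chromosome 2, 148395501) scored 144.4. Sstr3 and Sstr5 scored 64.1 and 61.5, both below the list median. The summit of Sstr1 lay 846 bp downstream of its nearest TSS, in the coding exon. This was the greatest downstream distance from the nearest TSS among receptors at or above the list median.

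All 4 opioid and nociceptin receptors, which couple to Gi/o, were marked at or above the list median. Oprl1, the nociceptin receptor (chromosome 2, 181715393), scored 205.2 at 45 bp downstream of a TSS. Oprm1, the mu receptor through which morphine acts (ENSMUSG00000000766, chromosome 10, 6758506 to 7038198, plus strand), scored 181.2 at 6788956. Oprk1, the dynorphin receptor, scored 111.4, and Oprd1, the delta receptor, scored 107.4.

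Oprm1 has 31 annotated transcripts that start in 2 clusters 30.1 kb apart. The outer cluster, with 9 transcripts, had no summit within 1 kb, and the inner cluster, with 22 transcripts and the run of 250 bases printed above, carried the summit. CpG observed over expected, the number of CpGs relative to that given by the C and G content, was 0.10 around the outer cluster and 0.40 around the inner one. Oprm1 was marked only through its inner start, and with the outermost TSS alone it would have been counted as unmarked. A further summit in the gene, with a score of 94.1, lay in a 3′ UTR within 1 kb of a TSS of Ipcef1.

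Among receptors of VIP and PACAP, all 3 were marked and their scores spanned most of the range. Adcyap1r1, the PAC1 receptor linked to fear and stress (ENSMUSG00000029778, chromosome 6, 55451978 to 55501451, plus strand), scored 250.4 at 55452480, 303 bp downstream of a TSS and higher than 87.9% of marked coding genes. Vipr1 scored 107.5 in a coding exon, 205 bp downstream of its outermost TSS. The nearest TSS, of a processed transcript without a coding sequence, lay 130 bp further downstream. Lyzl4 also has a TSS at 825 bp from the summit. Vipr2, the circadian VPAC2 receptor, scored 54.6.

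Both CRF receptors were marked, with the higher score at the type 1 receptor. Crhr1, which mediates the stress response to CRF (chromosome 11, 104133230), scored 160.8 in its first intron, with a further summit of 59.5 in a later intron 25.1 kb downstream of the TSS. Crhr2, which prefers the urocortins (chromosome 6, 55117866), scored 65.5. As at Oprm1, the outermost start cluster of Crhr2 had no summit and the marked cluster lay 15.0 kb inside the gene. CpG observed over expected was 0.18 around the outermost and 0.67 around the marked cluster.

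Receptors of the same ligand system differed in score in several of the systems that couple to Gq/11. Cckbr, the main cholecystokinin receptor of the brain (chromosome 7, 105426161), scored 146.7, and Cckar, known best from the gut and satiety, scored 13.8. Tacr1, the substance P receptor, scored 67.8, and Tacr3, the neurokinin B receptor, scored 39.4. Of the TRH receptors, Trhr scored 64.4 at 81 bp downstream of a TSS, and Trhr2 had no promoter summit. The higher-scoring member of the cholecystokinin pair was thus above the list median, whereas neither Tacr1, Tacr3 nor Trhr was. The third tachykinin receptor, Tacr2, is no member and had no promoter summit.

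The bombesin-like receptors held both the highest and the lowest score of the marked members, the highest at a summit shared with another gene. Nmbr, the neuromedin B receptor (ENSMUSG00000019865, chromosome 10, 14705591 to 14770850, plus strand), had the highest score of all members, 263.0, higher than 93.3% of marked coding genes. Its summit at 14705278 lay 313 bp upstream of the Nmbr TSS and 181 bp from a TSS of Vta1, a sorting factor transcribed the other way, so the summit was nearer to Vta1. At the second start cluster of Nmbr, 54.6 kb into the gene and away from Vta1, the summit scored 65.0. Grpr, the gastrin-releasing peptide receptor (ENSMUSG00000031364, chromosome X, minus strand), had the lowest score of the marked members, 2.84 at 163548998, and higher than 0.1% of marked coding genes. Further summits inside Grpr scored 5.31 and 2.84. The value of 65.0 at the second cluster is the promoter score of Nmbr that no other gene shared. RefSeq places no mRNA start of Nmbr at the outer cluster: its outermost one lay 53765 bp further in, and with RefSeq starts alone this summit of 65.0, below the list median, was the nearest, 361 bp downstream of a start.

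Receptors of oxytocin and vasopressin scored below the list median where they were marked. Oxtr, the oxytocin receptor (ENSMUSG00000049112, chromosome 6, minus strand), scored 37.6 at 112489456 in a coding exon, 487 bp downstream of a TSS. A nearby summit scored 8.54. Avpr1a, the main vasopressin receptor of the brain (chromosome 10, 122449137), scored 50.7 at 638 bp downstream, also in a coding exon. Avpr1b had no promoter summit. Oxtr was higher than 9.6% and Avpr1a higher than 11.7% of marked coding genes, although CpG observed over expected was 0.65 and 0.71 around their starts, above the 0.55 of the median coding gene.

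The melanocortin, neurotensin, orexin and galanin receptors had no member at or above the list median. Mc4r, the obesity-linked melanocortin receptor, scored 72.4 and Mc3r scored 5.06, with another summit of 17.7 in the 3′ UTR of Mc3r that lay 1661 bp from its TSS. Ntsr2 scored 87.4 and Ntsr1 scored 36.7. Hcrtr2 scored 89.8 and Hcrtr1 scored 52.4, the receptors of the orexins, which sustain wakefulness. Galr3 was the only marked galanin receptor, with a score of 60.1 at 864 bp upstream of its TSS and a further summit of 31.3 in a coding exon. Both genes of the melanocortin, neurotensin and orexin pairs were marked.

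Of the 9 receptors taken singly all were marked, and 2 reached the list median. Mchr1, the receptor of melanin-concentrating hormone (ENSMUSG00000050164, chromosome 15, 81235499 to 81238964, plus strand), scored 229.4 at 81235742, 243 bp downstream of its TSS and 45.0 kb from the nearest TSS of another coding gene. Kiss1r, the kisspeptin receptor of the reproductive axis (chromosome 10, 79917131), scored 197.1, but R3hdm4 has a TSS 125 bp from that summit and Kiss1r itself 160 bp. The second start cluster of Kiss1r had a summit of 22.9. Rxfp3, the relaxin-3 receptor, scored 54.0 and Glp1r, the GLP-1 receptor, scored 44.8. Lower scores were present at Ghsr, the ghrelin receptor (19.0), Npsr1, the neuropeptide S receptor (13.5), Calcr, the calcitonin receptor (11.4), Prlhr (8.71) and Rxfp1 (4.45).

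The 4 genes without a promoter summit differed in how far the nearest summit lay. Galr1 was the closest to the limit of 1 kb: a summit of 56.8 lay 1075 bp downstream of its TSS, in its own coding exon. The members just inside the limit were Rxfp3 at 999 bp, Galr3 at 864 bp and Sstr1 at 846 bp. For Trhr2 (ENSMUSG00000039079, chromosome 8, 122356967 to 122360746, minus strand) a summit of 39.7 at 122362613 lay 1867 bp upstream of the GENCODE start. RefSeq annotates a curated transcript of Trhr2 that begins at 122362828, and the same summit lay 215 bp downstream of that start. For Galr2 (ENSMUSG00000020793, chromosome 11) the nearest summit, of 227.5, lay 7322 bp upstream at the promoter of Srp68, a gene of the signal recognition particle. For Avpr1b (ENSMUSG00000026432, chromosome 1), the vasopressin receptor known from the pituitary and hippocampal CA2, the nearest summit lay 58.3 kb away and scored 13.2. The median of the nearest distance was 4.6 kb over these 4 genes and 60.1 kb over all unmarked coding genes, of which 72.3% had none within 20 kb, as was the case for 1 of the 4.

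**Figure D3:**
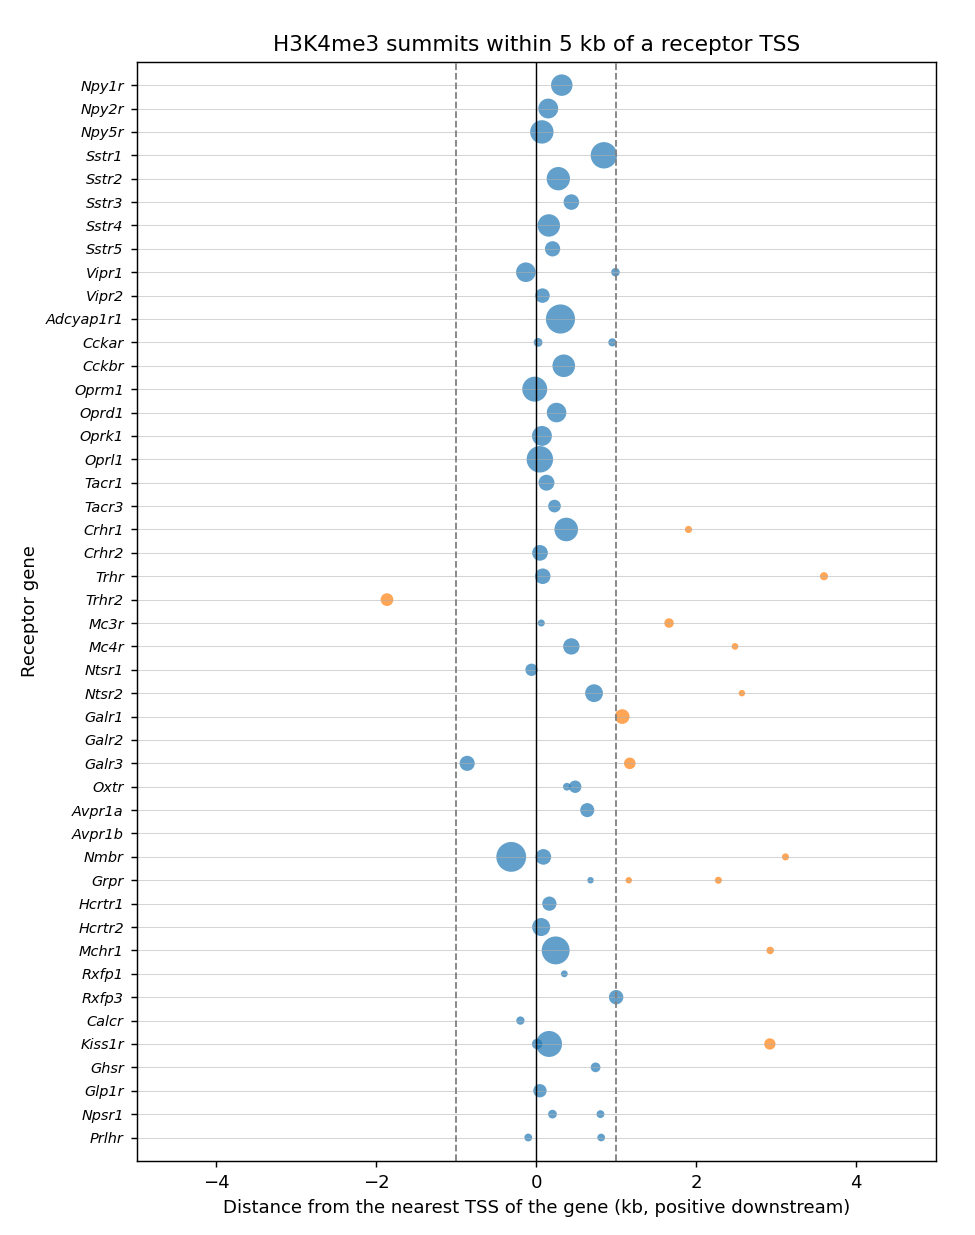
Summits within 5 kb of a receptor TSS, by signed distance from the nearest TSS of the gene (x axis, kb, positive downstream) and gene (y axis), with the area of a point growing with the score. Blue points lie within 1 kb (dashed lines) and orange points outside it, and Galr2 and Avpr1b have no point in this range.

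Most promoter summits lay just downstream of the TSS. The highest summit was downstream of the nearest TSS at 35 of the 42 marked receptors (83.3%) and upstream at 7, beside 79.3% downstream over marked coding genes. Among the 7, those of Vipr1, Oprm1, Ntsr1 and Calcr still lay inside the gene, downstream of its outermost TSS. The median position was 162 bp downstream (quartiles 50.5 and 349.25 bp), and it was 171 bp over marked coding genes. By GENCODE, 15 of these summits lay in a 5′ UTR, 14 in a coding exon, 9 in a first intron, 1 in an exon of a non-coding transcript and 3 outside the gene. More than 1 promoter summit was present at 7 of the 42, namely Cckar, Kiss1r, Nmbr, Npsr1, Oxtr, Prlhr and Vipr1, beside 18.1% of marked coding genes. Another 14 summits, scoring 2.82 to 94.1, lay inside 12 of the receptor genes at over 1 kb from every TSS of the gene. The share of coding genes with such a summit was not counted, so whether this is usual was not tested. Across the 42 genes, score and distance from the TSS were unrelated in rank (Spearman rho −0.03, n = 42 genes of 1 list, which are not replicates).

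Promoter CpG content was intermediate. CpG observed over expected, counted from 500 bp before to 500 bp after the outermost TSS, had a median of 0.47 over marked receptors and 0.35 over the 4 unmarked ones, and the marked receptors ranged from 0.10 to 0.86. Over coding genes the medians were 0.71 and 0.18. When all coding genes were divided into tertiles, at 0.30 and 0.71, the low tertile held 11 receptors, of which 10 were marked (90.9%, 62.3 to 98.4), beside 18.1% of the coding genes there. The middle tertile held 30, of which 27 were marked (90.0%, 74.4 to 96.5), beside 79.7%, and the high tertile held 5, all marked, beside 96.5%. Receptors of the low tertile were thus marked more often than other genes of that tertile, while their scores were lower: the median was 39.1 over marked receptors and 109.0 over marked coding genes. Oprm1 and Crhr2 fell in this tertile by an outer start without a summit, and around their marked clusters the content was that of the middle tertile. With the content taken at the marked cluster, which was tried after seeing the data, the low tertile held 9 receptors, of which 8 were marked with a median score of 13.7. In the middle tertile the medians were 67.8 and 182.9, and in the high tertile they were 107.5 and 207.7. Genes for olfactory, vomeronasal and trace amine receptors (Olfr, Vmn1r, Vmn2r and Taar), of which 4 of 1479 were marked, contribute to the background: without them 69.4% of all coding genes and 22.6% of the low tertile were marked. Rank correlation of score with CpG content was 0.21 over the 42 receptors and 0.27 over the 14197 marked coding genes, again over genes of 1 list.

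**Figure D4:**
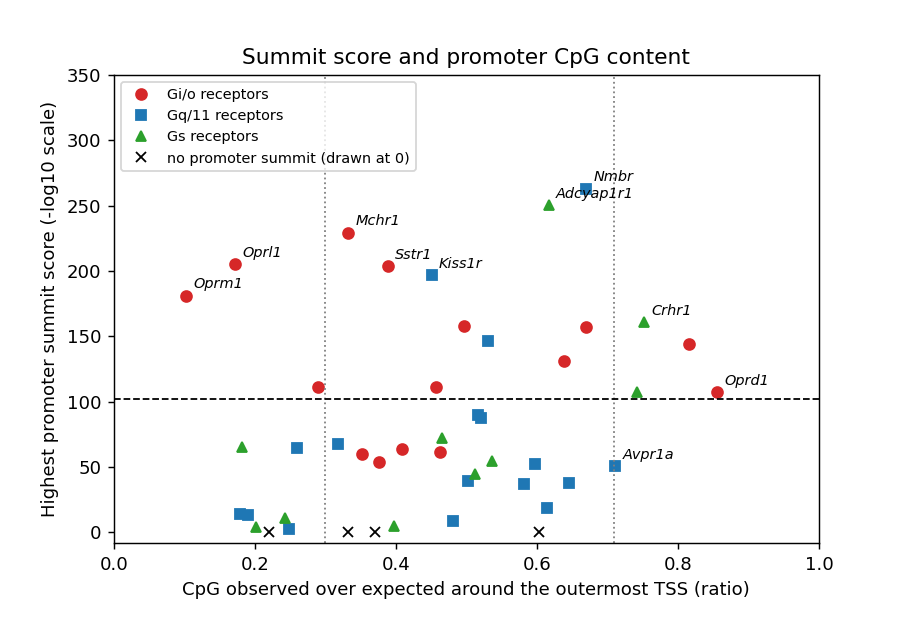
Highest promoter summit score (y axis, −log10 scale) against CpG observed over expected around the outermost TSS (x axis, ratio), with the shape and colour of a point giving the main G protein. The dashed line is the list median (102.3) and the dotted lines divide all coding genes into tertiles (0.30 and 0.71): Oprl1 lies in the low tertile with a score of 205.2, and Oprm1 and Crhr2 are drawn at the content of their outermost start, which had no summit.

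Of the 17 receptors at or above the list median, 11 couple mainly to Gi/o. Of 16 receptors that couple to Gi/o, 15 were marked and 11 were at or above the list median, with a median score of 131.2 and a range of 54.0 to 229.4. Of 20 that couple to Gq/11, 17 were marked, with a median of 50.7 and a range of 2.84 to 263.0. At or above the list median were 3 of them, Cckbr (146.7), Nmbr (263.0) and Kiss1r (197.1). The summits of Nmbr and Kiss1r lay nearer to a TSS of Vta1 and of R3hdm4, and at their second start clusters they scored 65.0 and 22.9. Of 10 that couple to Gs, all were marked and 3 were at or above the list median. Their median was 60.1 and their range 4.45 to 250.4. The ranges overlapped. Over all protein-coding genes, 64.7% were marked and 52.0% had a promoter summit at or above the list median. Whether the Gi/o count of 11 of 16 differs from the latter share was not tested. The median score of marked coding genes, 194.6, was above that of each of these receptor groups. In the low CpG tertile by the outermost start, the 3 marked Gi/o receptors scored 111.4 to 205.2, the 4 marked Gq/11 receptors 2.84 to 64.4 and the 3 Gs receptors 4.45 to 65.5, so the Gi/o scores lay above the others there, whereas those of Gq/11 and Gs overlapped. In the middle tertile the ranges were 54.0 to 229.4, 8.71 to 263.0 and 5.06 to 250.4, where 263.0 was the shared summit of Nmbr. The grouping was made with values of these genes known, and receptors for the same peptide are related genes, so it is a description without a test. Class A receptors, with rhodopsin-like sequence, were marked at 35 of 39 with a median score of 67.8. Class B receptors, which bind larger peptide hormones, were marked at 7 of 7 with a median of 65.5. Both counts stand beside the 64.7% of all protein-coding genes that were marked.

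Receptor genes with a single coding exon were all marked. They numbered 11, with a median score of 72.4, whereas 27.5% of coding genes with 1 coding exon were marked. Of the 35 with 2 or more coding exons 31 were marked, with a median of 65.5, beside 71.9% of such coding genes. The first background contains 1318 of the chemosensory genes named above, and without them 43.4% of coding genes with 1 coding exon were marked. The receptors had a median of 2 TSSs and coding genes a median of 3, and a gene with more starts has more chances to lie near a summit. Of the 15 receptors with 1 TSS 13 were marked, beside 33.3% of coding genes with 1 TSS.

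Genes of the same signalling systems were marked to different degrees. Of 29 transducers, which are G protein subunits, arrestins, receptor kinases, adenylyl cyclases, phospholipases and receptor accessory proteins, 27 were marked (93.1%, 78.0 to 98.1) and 25 were at or above the list median, with a median score of 185.4. Of 36 genes for the peptides themselves 18 were marked (50.0%, 34.5 to 65.5) and 2 reached the list median. These were Cck, with 144.2, and Agrp, with 232.3, whose summit lay nearer to a TSS of Ctcf (96 bp) than to its own (231 bp). Npy scored 30.7, Sst 41.9, Penk 95.1 and Tac1 48.7, and Vip, Crh, Oxt and Avp had no promoter summit. In 13 of the 14 ligand systems the highest-scoring receptor scored above every marked ligand of that system, 2 of these systems having no marked ligand, and the exception was the melanocortin system with Agrp. Most systems listed more receptors than ligands, such as somatostatin (5 and 2) and galanin (3 and 1), and only CRF fewer (2 and 4). The receptors thus had more chances of a high score. For cholecystokinin the scores, 146.7 and 144.2, were too close to be ordered. Of 36 further peptide receptors, some for the same peptides as the members (such as Npy4r, Tacr2 and Mc5r) and some for others (such as glucagon, endothelin and angiotensin), 18 were marked (50.0%, 34.5 to 65.5) and none reached the list median (95% Wilson interval up to 9.6%, while the limit set by 3 counts of 36 is 8.33%). Their median score was 30.8 and the highest, at the endothelin receptor Ednrb, was 95.8. Because the lists were drawn with earlier results of these data known, their contrast with the 46 members is a description without a test.

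**Figure D5:**
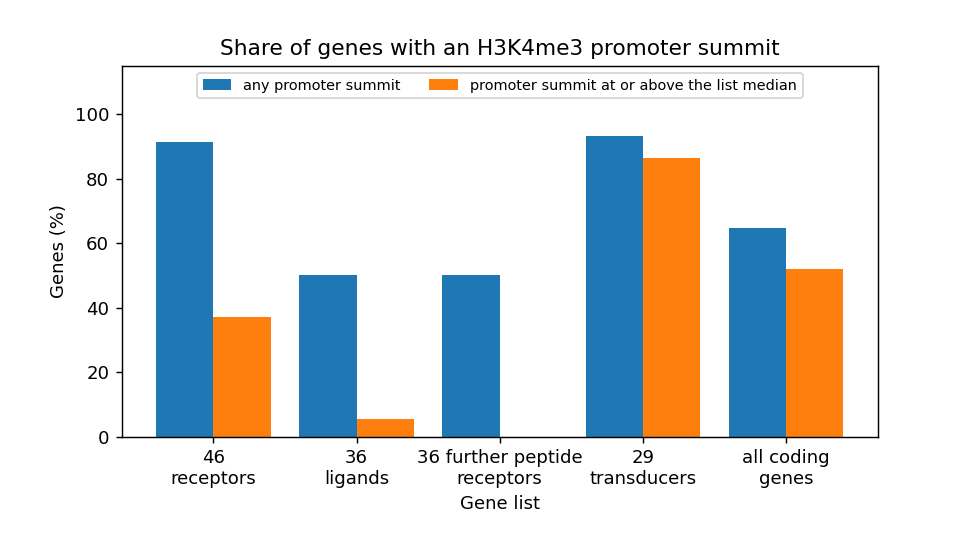
Share of genes (y axis, percent) with any promoter summit in blue and with a promoter summit at or above the list median in orange, for the receptor genes, the lists of ligands, further peptide receptors and transducers, and all protein-coding genes (x axis). Receptors and transducers are alike in the first share (91.3% and 93.1%) and not in the second (37.0% and 86.2%). The lists were drawn with earlier results of these data known.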

How the data were processed

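Per the labels and the Methods, chromatin of amygdala nuclei was digested with micrococcal nuclease and H3K4me3 was precipitated with an antibody. Alignment by the authors was to mm10 with Bowtie, and they called peaks with MACS2 2.1.0.20140616 against input. For both WT samples 1 list of summits was deposited, whose score was taken to be −log10 of the q-value. How both samples were combined into this list is not given in the Methods. The list gives no depth behind a score, and per-sample columns not used numbered 0. The MACS2 filter and the way both samples were combined affect which weak summits are listed. Summits were placed by distance to GENCODE M21 starts on GRCm38, and CpG content was read from RefSeq GRCm38.p6. Of the 46 members all matched by symbol. Shares carry 95% Wilson intervals, and there was 1 list for both WT samples, so no p-value is given. Members, lists and groupings were chosen with earlier results of these data known. All 46 members are named. Assignment was tested on simulated data, with 1 summit planted at a time upstream of the outermost TSS of a coding gene. In 200 of 200 cases its distance was recovered, and it counted as a promoter summit only within 1 kb. Downstream summits, genes with several summits and neighbouring genes were not covered by this check. Alternatives covered the window, scores, joining of summits, starts used and the CpG window. Tools were Python 3.11.15, numpy 2.4.6, pandas 2.3.3, scipy 1.17.1, pysam 0.24.0, samtools 1.23.1 and matplotlib 3.10.9. Mutant samples and inputs were not analysed here. The check of 1 further marker list is not reported here.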

Additional observations from a re-analysis of the deposited data

How the results depend on the processing

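The count of marked receptors was 42 as reported and stayed within 1.5 times of it at 35 (within 500 bp) to 44 (within 3 kb) under the other windows, starts, joining and nearest-gene settings. With only summits at or above the list median it was 17, the median score 158.1 and the number of unmarked receptors with no summit within 20 kb was 26 in place of 1, because fewer summits remained. With the outermost TSS only, the median distance was 277 bp in place of 162 bp, and Oprm1, Crhr2 and Ntsr2 were no longer marked. The share of coding genes with a promoter summit was 64.7% as reported, 57.1% within 500 bp, 67.1% within 3 kb, 52.0% with summits at or above the list median, 58.2% with the outermost TSS, 63.5% with starts of protein-coding transcripts and 57.2% when a summit counted only for the nearest gene. Chosen after seeing the data, RefSeq starts used together with those of GENCODE gave 65.6% and 43 marked receptors, with Trhr2 added. Leaving out chemosensory receptor genes, also chosen after seeing the data, gave 69.4%. With RefSeq starts alone 42 receptors were marked: Trhr2 was gained and Ntsr2, with its nearest summit at 1011 bp, was lost. Without the 3 receptors that share a summit, 39 of 43 were marked with a median score of 64.4, also chosen after seeing the data. Of 47 values under an alternative, 35 stayed within the interval or limit set for them and 12 moved. Some of these limits were wide. No count of 46 receptors could exceed 1.5 times 42. The interval for CpG content of the 4 unmarked receptors was their whole range, 0.22 to 0.60. The tally is therefore a description of the settings and not a measure of robustness. No paired analysis was possible because 1 list stands for both WT samples. Weak summits near the lowest scores may depend on depth, which the list does not give per summit.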
